A study of Rattus norvegicus with 20 samples.

Results

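Galectins are lectins, proteins that bind β-galactoside sugars on cell surface and secreted glycoproteins, and galectin-3-binding protein (Lgals3bp) is a secreted glycoprotein that carries such sugars and binds galectin-3. The 6 genes described here are Lgals1, Lgals3, Lgals3bp, Lgals5, Lgals8 and Lgals9, out of 32882 genes in the count table. They were found by gene symbol, and each symbol had 1 row. All 6 were among the 16734 genes kept by the filter on low counts. They were chosen by their counts in these same rats, mainly the difference between the pterostilbene diet and the control diet. Their differences between those diets, and between the pterostilbene diet and the others, are therefore given as a description and not as a test.

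Blood was taken from 20 wild-type male Fischer 344 rats, 5 on each of 4 diets, at 8 weeks of age and after 20 days of feeding. Every rat ate CSAA, a diet with enough choline and defined amino acids. It was supplemented with 1.34 g of pterostilbene per kg (CSAA+PTS), 1.2 g of resveratrol per kg (CSAA+RSV) or 1.9 g of chlorogenic acid per kg (CSAA+CGA), doses set to be equal in moles, or given without a supplement. Pterostilbene is the dimethoxy analog of resveratrol, a stilbene, and chlorogenic acid is a polyphenol of another class. The RNA came from whole blood, a mixture of red cells, reticulocytes, platelets and white cells, in which fewer cells of a type and less RNA per cell cannot be told apart. The rats were housed in pairs, but the sources used here do not say which rats shared a cage.

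In 19 rats the libraries held 24036703 to 36743103 counts. CSAA+RSV Rat4 had 861072 counts and was left out of every diet mean and fit below, so that 4 rats stand for CSAA+RSV. The fifth rat of each diet had 25104 to 29543 genes with a count, against 19600 to 23632 in the other rats used. Markers of red cells, platelets, neutrophils, monocytes, T cells, B cells, NK cells and eosinophils were all detected, and a single platelet gene, Gp1bb, was at 0 in all 19 rats.

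The 6 genes have different roles. Galectin-1 (Lgals1) is a small single-domain galectin that can restrain activated T cells, and galectin-3 (Lgals3) is a chimeric galectin abundant in monocytes and macrophages. Galectin-8 (Lgals8) and galectin-9 (Lgals9) each carry a pair of sugar-binding domains on 1 chain. Galectin-8 marks damaged endosomes and lysosomes for autophagy, and galectin-9 attracts eosinophils and is a ligand of the T cell receptor Tim-3. Galectin-5 (Lgals5) is a galectin known from rat erythrocytes and reticulocytes and a close relative of galectin-9. Lgals3bp and Lgals9 are known as genes that interferons induce.

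Lgals5 was by far the most abundant of the 6 transcripts. To compare genes, counts per 1000000 counts of the library (CPM) were divided by gene length in kilobases as listed in the file. On that scale Lgals5 averaged 773 ± 65.3 CPM per kb in CSAA rats (SD, n = 5), and 241 of the 16734 genes had a higher mean. Lgals9 followed at 73.9 ± 8.49, Lgals1 at 37.5 ± 7.52, Lgals3bp at 27.6 ± 3.43, Lgals3 at 18.9 ± 2.60 and Lgals8 at 3.76 ± 0.307 CPM per kb. Among neighbors in this order, Lgals1 and Lgals3bp overlapped across the CSAA rats (26.5 to 47.6 and 24.9 to 32.9 CPM per kb), and no other neighbors did. The order was the same in the CSAA+CGA means, whereas in CSAA+PTS rats Lgals3bp averaged 14.2 ± 4.00 CPM per kb and stood below Lgals3 at 17.8 ± 2.86, with overlapping values. In CSAA+RSV rats Lgals3bp (20.1 ± 4.20, n = 4) was likewise below Lgals3 (23.3 ± 1.77).

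**Figure D1:**
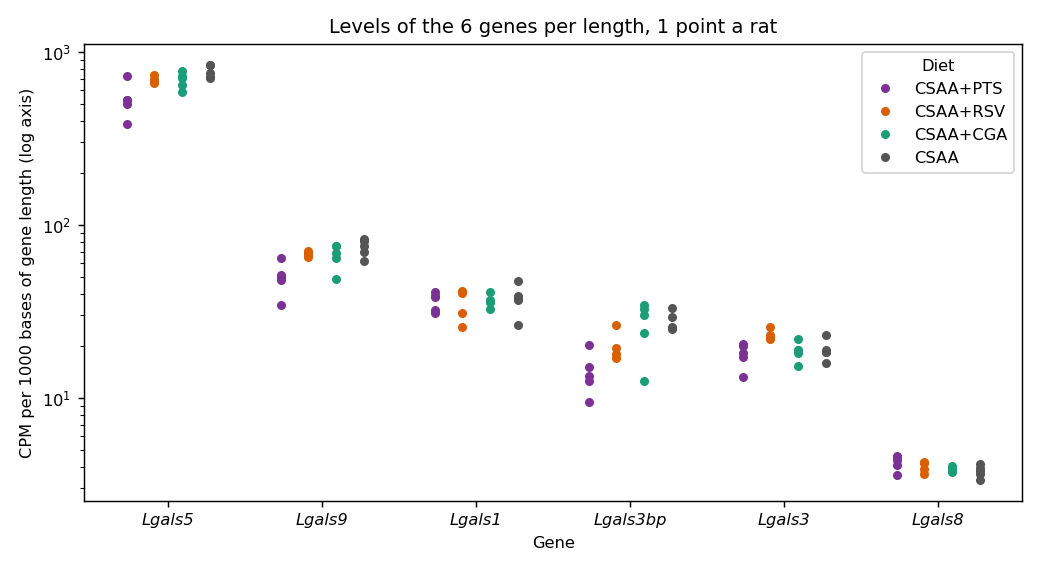
CPM divided by gene length in kilobases (log axis) for the 6 genes, 1 point a rat and 1 color a diet, in 19 rats. Lgals5 lay about an order of magnitude above Lgals9 in every diet, Lgals8 was the lowest in every rat, and the mean of Lgals3bp was below that of Lgals3 in CSAA+PTS and CSAA+RSV only.

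Lgals5 took 66.3 to 71.4% of the counts of the 6 genes in every rat, CSAA+RSV Rat4 included. Per length, Lgals5 stood 10.7 ± 0.489 times as high as Lgals9 in CSAA+PTS rats, 10.2 ± 0.435 times in CSAA+RSV, 10.4 ± 0.914 times in CSAA+CGA and 10.5 ± 0.599 times in CSAA (SD, n = 5, 4, 5 and 5). The ratio thus stayed nearly constant while both levels differed between rats. The genes are close relatives, and the sources used here do not say how reads that match both were counted, so the split of reads between Lgals5 and Lgals9 is uncertain. In the RefSeq annotation Lgals9 also overlaps a pseudogene, Nos2-ps1, while the other 5 genes overlap none.

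Lgals3bp, Lgals5 and Lgals9 lie on chromosome 10 and were the 3 genes that differed most between CSAA+PTS and CSAA. Their promoter windows are shown because these genes varied together over the rats. The windows hold 250 bases before and 50 after the start of the RefSeq gene on the GRCr8 build, a newer one than the rn6 build of the counts, and 4 of the 6 genes (the 3 shown and Lgals8) matched the table used. Capitals mark matches to the core of the interferon-stimulated response element, searched on both strands as GAAA, any 2 bases and again GAAA, and in Lgals5 also a match to AGATAA, the letters bound by erythroid GATA factors. No match overlaps another.
Lgals3bp (chr10:104127799-104128098, minus strand): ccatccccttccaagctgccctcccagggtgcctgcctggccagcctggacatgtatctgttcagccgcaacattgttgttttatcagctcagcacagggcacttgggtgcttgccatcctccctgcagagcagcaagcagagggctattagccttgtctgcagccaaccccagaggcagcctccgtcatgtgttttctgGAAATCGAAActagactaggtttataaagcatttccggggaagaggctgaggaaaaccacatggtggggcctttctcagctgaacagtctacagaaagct
Lgals5 (chr10:64355088-64355387, minus strand): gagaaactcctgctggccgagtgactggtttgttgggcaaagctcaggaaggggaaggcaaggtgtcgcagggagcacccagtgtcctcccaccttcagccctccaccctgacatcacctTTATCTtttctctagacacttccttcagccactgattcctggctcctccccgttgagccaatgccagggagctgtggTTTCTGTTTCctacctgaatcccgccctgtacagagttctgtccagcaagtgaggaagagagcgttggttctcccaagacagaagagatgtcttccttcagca
Lgals9 (chr10:64428021-64428320, minus strand): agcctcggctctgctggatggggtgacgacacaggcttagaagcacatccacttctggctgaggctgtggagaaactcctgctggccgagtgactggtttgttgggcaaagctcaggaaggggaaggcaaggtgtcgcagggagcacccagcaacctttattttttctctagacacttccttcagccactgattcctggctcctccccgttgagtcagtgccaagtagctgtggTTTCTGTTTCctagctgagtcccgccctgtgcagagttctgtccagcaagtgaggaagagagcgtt

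Each of these 3 windows held 1 match to the response element core, starting at base 201 in Lgals3bp, 198 in Lgals5 and 235 in Lgals9, and the Lgals8 window (chromosome 17) held none. Of 33469 promoter windows of the same length, 3.92% held this match. The AGATAA letters were present in Lgals5 alone among the 4 windows and in 11.6% of all windows. TTCNNNGAA, the gamma-activated sequence, was in none of the 4 and in 8.87% of all. The Lgals5 and Lgals9 windows share a similar stretch, from base 1 to 263 in Lgals5 and from base 70 to 300 in Lgals9. In it 223 of 231 aligned bases were identical (96.5%), and 32 bases in 2 gaps were found only in Lgals5. The response element matches of Lgals5 and Lgals9 both lie in this stretch and have the same letters, so they are not separate observations. One of the 8 base differences, C125T (Lgals5 base first, counted from 1 at the 5′ end of the Lgals5 window), falls in the AGATAA match of Lgals5. A match of letters is a description of the window and does not show binding.

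Lgals3bp was also 1 of the genes for which the study designed qRT-PCR primers, shown because they fix the part of the transcript that was amplified.
Forward: gggcagcagtgtcatcat
Reverse: acctcgattcttcgggagta

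Lgals3bp showed the widest differences between diets. In CSAA+PTS rats it stood at 27.5, 44.6, 29.4, 33.3 and 20.8 CPM, against 55.8, 64.2, 72.4, 56.4 and 54.7 CPM in CSAA rats. All 5 CSAA+PTS rats were thus below all 5 CSAA rats, with CSAA+PTS Rat2 the nearest to them. The means were 31.1 ± 8.78 CPM in CSAA+PTS rats and 60.7 ± 7.54 CPM in CSAA rats (SD, n = 5 each), a log2 fold change of -0.96 (SE 0.230, 95% interval -1.44 to -0.48), or 0.513 of the CSAA level.

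Lgals5 and Lgals9 were lower in the same rats. Lgals5 had 455, 655, 480, 480 and 345 CPM in CSAA+PTS rats, against 649, 763, 765, 644 and 688 CPM in CSAA rats, a log2 fold change of -0.54 (SE 0.147, 95% interval -0.85 to -0.23). Lgals9 had 138, 179, 142, 133 and 95.4 CPM in CSAA+PTS rats, against 193, 229, 223, 171 and 210 CPM in CSAA rats, a log2 fold change of -0.58 (SE 0.149, 95% interval -0.89 to -0.26). For both genes 4 of 5 CSAA+PTS rats were below every CSAA rat, and CSAA+PTS Rat2 overlapped with them.

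The other 3 genes differed little between CSAA+PTS and CSAA. The log2 fold change was -0.09 (SE 0.123) for Lgals3, -0.05 (SE 0.147) for Lgals1 and 0.17 (SE 0.0890) for Lgals8, with intervals that include 0. Lgals8 had 11.4, 10.2, 11.5, 10.9 and 8.98 CPM in CSAA+PTS rats, against 10.4, 9.04, 9.89, 9.40 and 8.38 CPM in CSAA rats, and 3 of the CSAA+PTS rats were above every CSAA rat. It had the only positive estimate of the 6. The median over the 6 genes was -0.31, beside 0.02 over all genes tested.

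None of these differences passed the test across all genes. With edgeR and Benjamini-Hochberg adjustment over 16734 genes, 0 genes (0%) had an adjusted p of at most 0.05 between CSAA+PTS and CSAA, and 1269 had an unadjusted p under 0.05. Lgals3bp, Lgals5 and Lgals9 were among the 4.54% of all genes that were lower at an unadjusted p under 0.05. Lgals3bp was among the 0.884% of genes with every CSAA+PTS rat below every CSAA rat. At an adjusted p of at most 0.05, DESeq2 called 14 genes on the 2 diets, with Lgals3bp among them, and 6 on the 4 diets, with none of the 6 galectin genes among them. Limma with sample weights called 26, with Lgals3bp, Lgals5 and Lgals9 among them. Without CSAA+PTS Rat2 edgeR called 8 genes, none of them among the 6. Since the genes were chosen with this comparison in view, nothing is read from these shares.

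**Figure D2:**
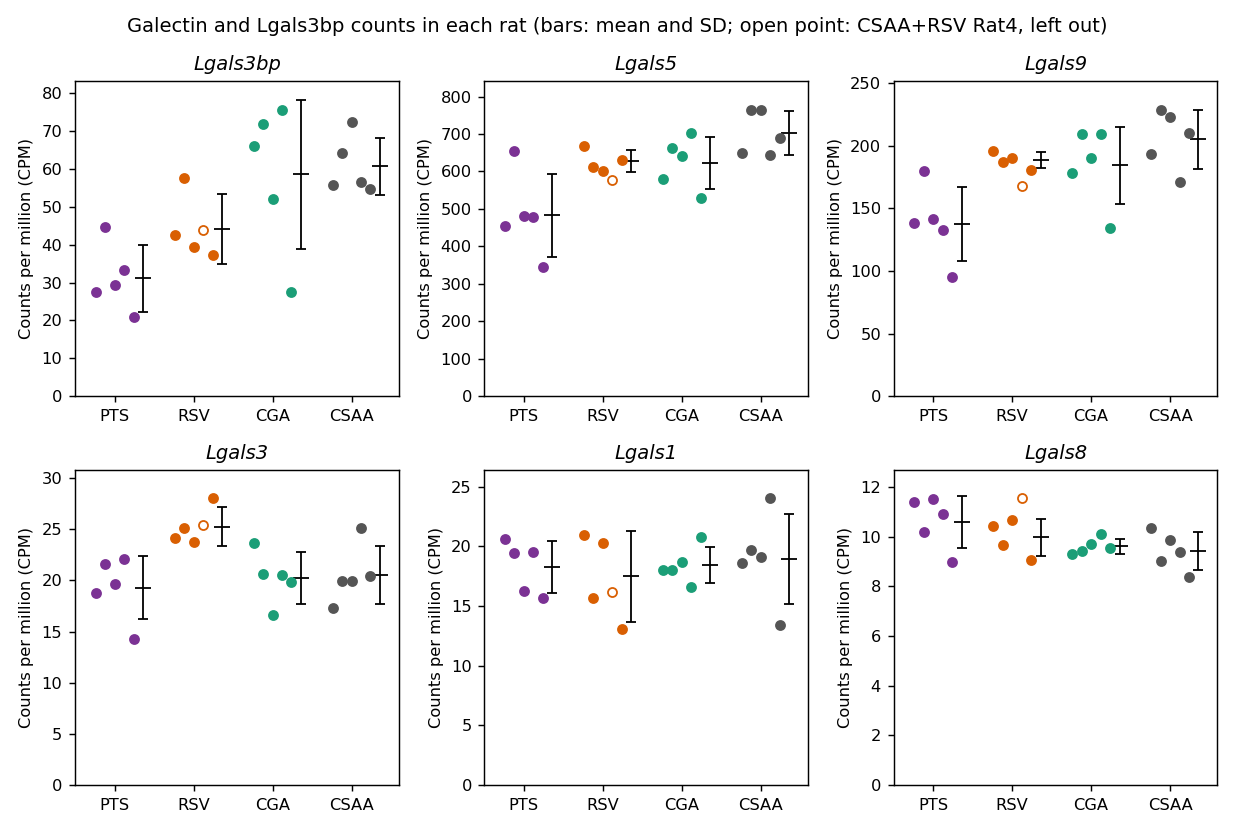
CPM of each gene in each rat by diet (PTS, RSV and CGA stand for CSAA+PTS, CSAA+RSV and CSAA+CGA), with the mean and SD beside the points and CSAA+RSV Rat4 as an open point left out of the mean. Lgals3bp, Lgals5 and Lgals9 were lowest in CSAA+PTS rats (31.1, 483 and 137 CPM on average), Lgals3 was highest in CSAA+RSV rats (25.3 CPM), and Lgals1 and Lgals8 overlapped between all diets.

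Resveratrol at the same molar dose gave other values for some of the genes. Lgals3bp had 42.6, 57.6, 39.3 and 37.2 CPM in CSAA+RSV rats, against 54.7 to 72.4 CPM in CSAA rats, a log2 fold change of -0.46 (SE 0.243, 95% interval -0.97 to 0.05). Of the 4 CSAA+RSV rats, 3 were below every CSAA rat and Rat2 was not. Lgals5 averaged 628 ± 29.5 CPM in CSAA+RSV rats and 702 ± 59.3 CPM in CSAA rats, and Lgals9 188 ± 6.46 and 205 ± 23.6 CPM (SD, n = 4 and 5). The log2 fold changes were -0.16 (SE 0.155) and -0.12 (SE 0.158), with intervals that include 0, although 3 of 4 CSAA+RSV rats were below every CSAA rat for Lgals5. The spread of Lgals5 and Lgals9 was smallest in CSAA+RSV, with coefficients of variation of 4.70 and 3.43%, against 8.44 and 11.5% in CSAA.

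Lgals3 was the gene of the 6 with an interval above 0 between CSAA+RSV and CSAA. It had 24.1, 25.2, 23.8 and 28.0 CPM, against 17.3, 19.9, 19.9, 25.1 and 20.4 CPM in CSAA rats, a log2 fold change of 0.30 (SE 0.130, 95% interval 0.03 to 0.57). The diets overlapped through CSAA Rat4, and 2 of 4 CSAA+RSV rats were above every CSAA rat. Lgals1 averaged 17.5 ± 3.79 CPM in CSAA+RSV and 18.95 ± 3.80 CPM in CSAA, and Lgals8 9.98 ± 0.735 and 9.42 ± 0.767 CPM. In edgeR the adjusted p was 1.00 for all 6 genes, 0 genes (0%) passed and 355 had an unadjusted p under 0.05, and DESeq2 and limma called 0 genes as well. Lgals3 was among the 1.21% of all genes higher at an unadjusted p under 0.05. With CSAA+RSV Rat4 put back the log2 fold change was 0.30 for Lgals3 and -0.46 for Lgals3bp.

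With chlorogenic acid the 95% intervals of all 6 genes against CSAA included 0. Lgals3bp averaged 58.6 ± 19.6 CPM in CSAA+CGA rats and 60.7 ± 7.54 CPM in CSAA rats (SD, n = 5 each), a log2 fold change of -0.05 (95% interval -0.53 to 0.42). The CSAA+CGA rats were spread widely, at 66.1, 72.0, 52.0, 75.6 and 27.4 CPM, with the fifth rat among the CSAA+PTS values. The same rat was lowest of its diet for Lgals5 (529 CPM, against 581 to 703 CPM in the other CSAA+CGA rats) and for Lgals9 (134 CPM, against 178 to 210). Without it the log2 fold change was 0.13 for Lgals3bp and -0.06 for Lgals9, beside -0.15 for Lgals9 with all rats, and without CSAA Rat3 that of Lgals3bp was 0.02. The 6 log2 fold changes ran from -0.17 (Lgals5, SE 0.146) to 0.03 (Lgals8), and no bound of their intervals was farther from 0 than 0.53. For Lgals5, 3 of 5 CSAA+CGA rats were below every CSAA rat. In edgeR 0 genes (0%) passed, 0.639% of all genes but none of the 6 had an unadjusted p under 0.05, and the adjusted p was 1.00 for each. DESeq2 and limma also called 0 genes.

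**Figure D3:**
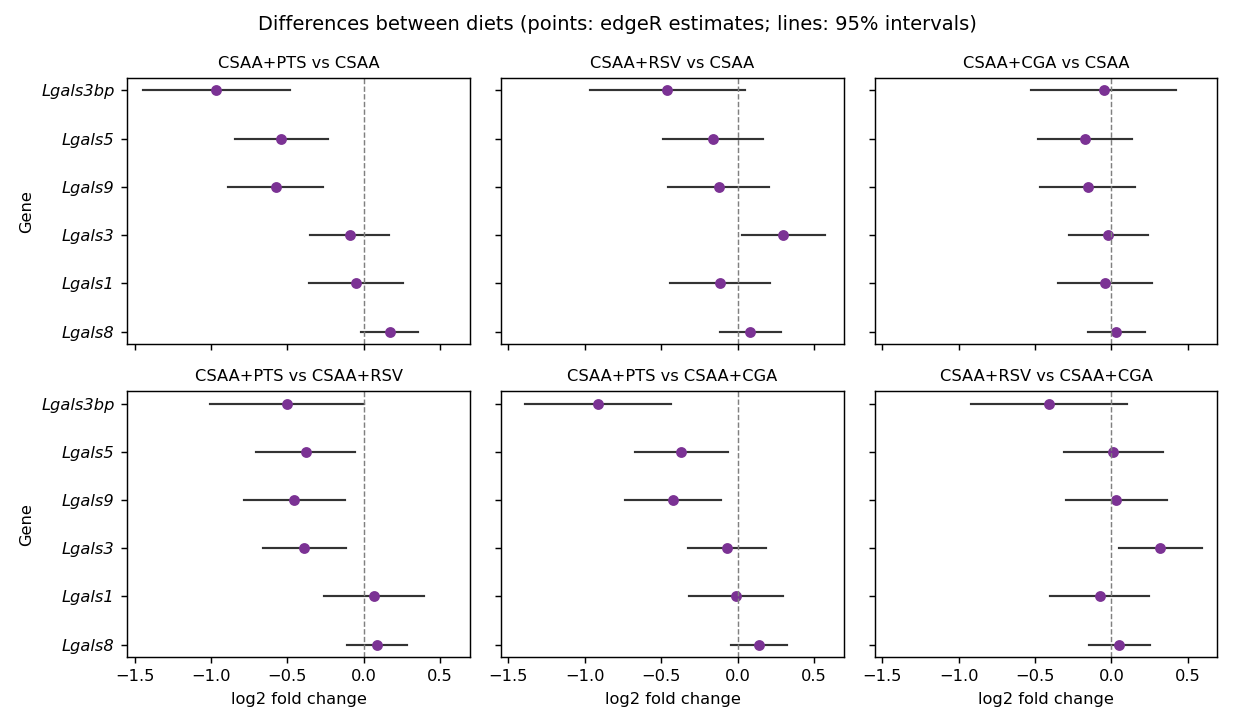
Log2 fold change of each gene in the 6 comparisons of diets, with edgeR estimates as points and their 95% intervals as lines. The intervals of Lgals3bp, Lgals5 and Lgals9 lie below 0 in the 3 comparisons with CSAA+PTS on top (with the upper bound for Lgals3bp against CSAA+RSV just under 0), and that of Lgals3 lies off 0 in the 3 comparisons that involve CSAA+RSV.

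The direct comparison of the related stilbenes used the same CSAA+PTS rats. Lgals3 was lower in all 5 CSAA+PTS rats (18.8, 21.6, 19.6, 22.1 and 14.3 CPM) than in all 4 CSAA+RSV rats (23.8 to 28.0 CPM), a log2 fold change of -0.39 (SE 0.130, 95% interval -0.66 to -0.12). Lgals9 did not overlap either, at 95.4 to 179 CPM in CSAA+PTS rats and 181 to 196 CPM in CSAA+RSV rats, a log2 fold change of -0.45 (SE 0.157, 95% interval -0.78 to -0.12). These were 2 of the 6 genes, beside 0.299% of all genes with every CSAA+PTS rat below every CSAA+RSV rat. Since the genes were chosen with the CSAA+PTS values in view, nothing is read from this share or from that at an unadjusted p below. Lgals5 differed by -0.38 (SE 0.154) and Lgals3bp by -0.50 (SE 0.241), and for each 1 of 5 CSAA+PTS rats, Rat2, was not below every CSAA+RSV rat. Without CSAA+RSV Rat2 the value of Lgals3bp was -0.33, and over all fits without 1 rat it ran from -0.64 to -0.33. Without the fifth rats Lgals3 was at -0.24.

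Those 4 genes were among the 2.34% of all genes lower in CSAA+PTS than in CSAA+RSV at an unadjusted p under 0.05. In edgeR the adjusted p was 1.00 for each, and 0 of 16734 genes (0%) passed, with 512 at an unadjusted p under 0.05. DESeq2 called 2 genes on the 2 diets and 1 on the 4 diets, and limma called 1, none of them among the 6. Lgals1 (0.07, 95% interval -0.26 to 0.39) and Lgals8 (0.09, 95% interval -0.11 to 0.29) did not differ beyond their error, within the bounds given.

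Against CSAA+CGA, the same CSAA+PTS rats had lower Lgals3bp, Lgals5 and Lgals9. The log2 fold changes were -0.91 (SE 0.229), -0.37 (SE 0.146) and -0.42 (SE 0.149). The genes were chosen with the values of these CSAA+PTS rats in view, so nothing is read from their share of all genes. These 3 were among the 2.56% of all genes lower at an unadjusted p under 0.05, but 0 genes (0%) passed in edgeR, the adjusted p was 0.828 for each, and 874 genes had an unadjusted p under 0.05. DESeq2 called 3 genes on the 2 diets, none of them among the 6, and 0 on the 4 diets, and limma called 0. The diets overlapped for all 6 genes, for Lgals3bp only through CSAA+CGA Rat5. Between CSAA+RSV and CSAA+CGA, Lgals3 was higher in all 4 CSAA+RSV rats (23.8 to 28.0 CPM) than in all 5 CSAA+CGA rats (16.7 to 23.7 CPM), a log2 fold change of 0.32 (SE 0.130, n = 4 and 5). This placed Lgals3 among the 0.347% of all genes with every CSAA+RSV rat above every CSAA+CGA rat and the 1.31% higher at an unadjusted p under 0.05, while 0 genes (0%) passed in edgeR, DESeq2 or limma and 327 had an unadjusted p under 0.05 in edgeR.

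Diet accounted for 58.6% of the variance of log2 CPM over the 19 rats in Lgals5, 55.0% in both Lgals9 and Lgals3bp and 41.6% in Lgals3, beside a median of 11.9% over all genes. For Lgals5, Lgals9 and Lgals3bp these shares restate the differences by which the genes were chosen. Lgals3 had its highest mean in CSAA+RSV (25.3 CPM, against 19.3 to 20.5 CPM in the other diets). It too was chosen from these rats, so its share is a description. Lgals8 (30.4%) and Lgals1 (3.85%) had smaller shares between diets. The rat numbers of the titles, which repeat in each diet, accounted for 48.0% in Lgals8, 34.5% in Lgals1, 28.3% in Lgals3bp, 21.9% in Lgals9, 16.5% in Lgals5 and 8.51% in Lgals3. The median over all genes was 36.1%.

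Over the 19 rats, 3 of the genes varied together. The correlation of log2 CPM was r = 0.968 between Lgals5 and Lgals9, 0.880 between Lgals3bp and Lgals9 and 0.855 between Lgals3bp and Lgals5. Within diets, after the diet means were taken off, these were 0.932, 0.820 and 0.738. In the 15 rats without the fifth of each diet they were 0.955, 0.835 and 0.830. The points share libraries, depth and the diets, and the values are descriptions.

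The other 3 genes followed those less closely over the 19 rats. Lgals3 had r = 0.269 with Lgals3bp, 0.404 with Lgals5 and 0.375 with Lgals9. Within diets these were 0.380, 0.406 and 0.281, but over the 15 rats 0.0418, 0.00332 and -0.0440. Lgals1 had r between -0.0118 and 0.403 with the other 5. Its highest value, with Lgals8, was 0.543 within diets and -0.0584 over the 15 rats. Lgals8 had r = -0.309 with Lgals3bp, -0.260 with Lgals5 and -0.212 with Lgals9 over 19 rats but -0.853, -0.723 and -0.698 over the 15 rats. Within diets over the 19 rats the Lgals8 values were of the other sign, at 0.177, 0.267 and 0.305. The values of Lgals3 and Lgals8 thus depended on the fifth rats, and those of Lgals8 also on the diet means.

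**Figure D4:**
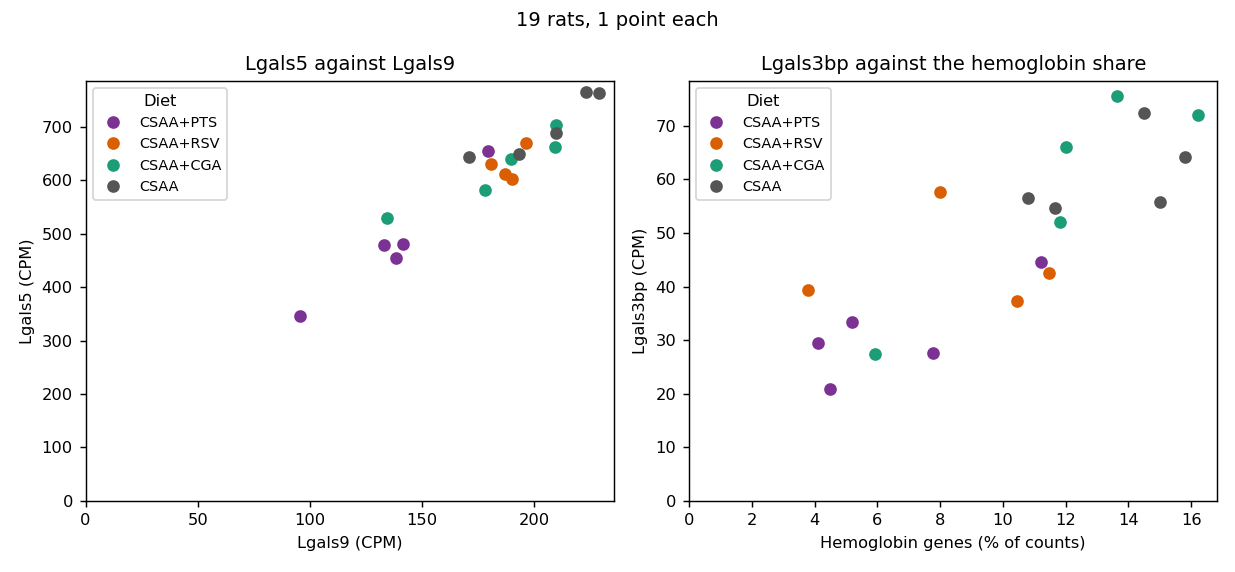
Lgals5 against Lgals9 (both in CPM) on the left and Lgals3bp (CPM) against the share of counts from hemoglobin genes (percent) on the right, 1 point a rat for 19 rats, colored by diet. Lgals5 and Lgals9 fall along 1 line (r = 0.968 on the log2 scale), and Lgals3bp was lowest in rats with a low hemoglobin share (r = 0.828).

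Red cell genes varied with Lgals3bp, Lgals5 and Lgals9. Hemoglobin genes took a median of 5.20% of counts in CSAA+PTS rats (4.12 to 11.2%), 9.22% in CSAA+RSV (3.78 to 11.5%), 12.0% in CSAA+CGA (5.93 to 16.2%) and 14.5% in CSAA (10.8 to 15.8%). That share had r = 0.828 with Lgals3bp, 0.774 with Lgals5, 0.769 with Lgals9 and 0.0158 with Lgals3. Of 23 erythroid markers measured, 18 had a log2 fold change below 0 between CSAA+PTS and CSAA, 4 of them at an unadjusted p under 0.05 and 0 at an adjusted one, with a median of -0.20. Over all genes the median was 0.02, with 47.2% below 0 and 4.54% lower at that unadjusted p. Their summed level ran from 44037 to 133550 CPM in CSAA+PTS rats and from 92343 to 166553 CPM in CSAA rats, with no marker at 0.

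Hba-a1, an alpha globin gene, averaged 10099 ± 4263 CPM in CSAA+PTS rats and 21762 ± 4376 CPM in CSAA rats, a log2 fold change of -1.11 (SE 0.353). When library sizes were computed without hemoglobin genes, which rescales all genes of a library alike, the log2 fold change of Lgals3bp between CSAA+PTS and CSAA was -0.97 and those of Lgals5 and Lgals9 were -0.54 and -0.58. The part of red cell RNA in the galectin differences was not tested.

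Genes that interferons induce also varied with Lgals3bp. Of 46 interferon-stimulated genes measured, which included neither Lgals3bp nor Lgals9, 40 had a log2 fold change below 0 between CSAA+PTS and CSAA, beside 47.2% of all genes, and 23 did so at an unadjusted p under 0.05, beside 4.54% of all genes. The median was -0.41. None passed at an adjusted p of 0.05 in edgeR. Irf7, a transcription factor of the interferon response, had 643 ± 239 CPM in CSAA+PTS rats and 1182 ± 127 CPM in CSAA rats (log2 fold change -0.88, SE 0.242). Rsad2, which encodes viperin, had 8782 ± 2598 and 8164 ± 2553 CPM, a difference within its error (log2 fold change 0.11, SE 0.269).

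The same list was centered near 0 in the other diets, with a median of 0.07 between CSAA+RSV and CSAA and 0.01 between CSAA+CGA and CSAA. The mean log2 level of the list had r = 0.77 with Lgals3bp, 0.75 with Lgals5, 0.73 with Lgals9 and 0.72 with Lgals3 over 19 rats. Within diets these were 0.68 for Lgals3bp, 0.53 for Lgals5, 0.46 for Lgals9 and 0.81 for Lgals3, and in the 15 rats 0.72, 0.57, 0.54 and 0.61 in the same order. The erythroid list had r within diets of 0.85 with Lgals3bp, 0.89 with both Lgals5 and Lgals9 and 0.19 with Lgals3. Neither list was particular in this: within diets Lgals3bp had r = 0.86 with the glycoproteins that galectins bind. It had 0.69 with the platelet markers and 0.64 with the neutrophil markers. For the remaining lists r ran from -0.39 (eosinophils and basophils) to 0.58 (genes acting at damaged lysosomes). Interferon and erythroid genes were known to differ in these rats when the lists were chosen. The part of any list in the galectin values was not tested.

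**Figure D5:**
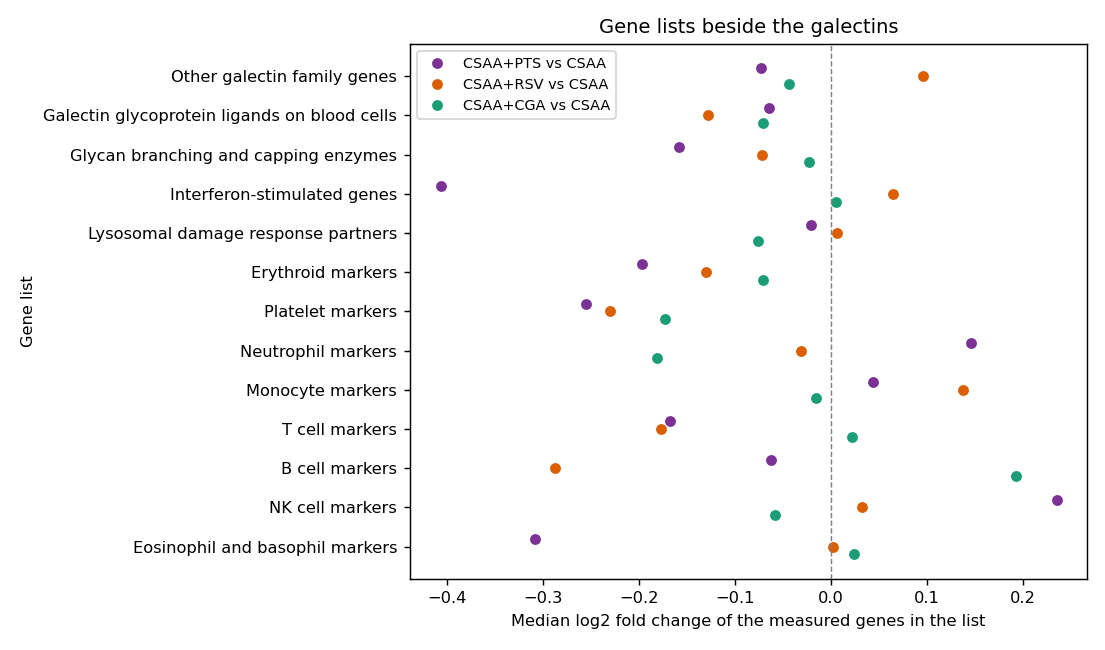
Median log2 fold change of the measured genes in 13 gene lists for CSAA+PTS, CSAA+RSV and CSAA+CGA, each against CSAA. The interferon-stimulated genes had the lowest median of the plot with CSAA+PTS (-0.41) and lay near 0 with the other diets. The erythroid, platelet, galectin ligand and glycan enzyme lists lay below 0 in all 3 comparisons.

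The partners of galectins showed smaller differences. Of 19 glycoproteins on blood cells that galectins are known to bind, 13 had a log2 fold change below 0 between CSAA+PTS and CSAA, 1 of them at an unadjusted p under 0.05, and the median was -0.06, beside 47.2% below 0 and 4.54% lower at that p over all genes. Ptprc, which encodes the phosphatase CD45, had 720 ± 106 CPM in CSAA+PTS rats and 652 ± 60.0 CPM in CSAA rats. Itgb1, the integrin β1 chain, had 201 ± 43.2 and 208 ± 27.2 CPM, and Cd9, a tetraspanin, 146 ± 44.7 and 147 ± 27.4 CPM. Among 19 enzymes that build or cap the sugars that galectins read, 11 were below 0, 2 of them at an unadjusted p under 0.05. The median was -0.16. St3gal1, a sialyltransferase that caps galactose, had 60.3 ± 14.9 CPM in CSAA+PTS rats and 74.6 ± 5.24 CPM in CSAA rats (log2 fold change -0.31, SE 0.197), and St3gal2, a related enzyme, 97.6 ± 34.0 and 111 ± 26.2 CPM. C1galt1, which makes the core O-glycan, had 62.5 ± 10.5 and 60.5 ± 6.02 CPM.

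Of 13 genes that act with galectin-8 or galectin-3 at damaged lysosomes, 7 were below 0 between CSAA+PTS and CSAA and none had an unadjusted p under 0.05, with a median of -0.02. Tax1bp1, an autophagy receptor, had 2241 ± 604 CPM in CSAA+PTS rats and 2072 ± 387 CPM in CSAA rats. Gabarapl2 and Map1lc3b, which encode proteins of the autophagosome membrane, had 1411 ± 492 and 291 ± 82.3 CPM in CSAA+PTS rats, against 1281 ± 343 and 254 ± 61.4 CPM in CSAA rats. Across these 3 lists no gene passed at an adjusted p of 0.05 in any of the 6 comparisons.

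White cell and platelet markers did not all lean one way between CSAA+PTS and CSAA. Genes below 0 were 11 of 17 for platelets, 5 of 14 for neutrophils, 5 of 15 for monocytes, 13 of 18 for T cells, 10 of 14 for B cells, 3 of 13 for NK cells and 6 of 8 for eosinophils and basophils, beside 47.2% of all genes. The summed monocyte markers ran from 1213 to 1763 CPM in CSAA+PTS rats, from 1313 to 1770 CPM in CSAA+RSV rats and from 1213 to 2032 CPM in CSAA rats. Their mean log2 level had r = 0.62 with Lgals3 over 19 rats and 0.56 within diets, and that of the neutrophil markers had r = 0.60 and 0.73. The summed neutrophil markers ran from 475 to 1269 CPM in CSAA+PTS rats, from 699 to 924 CPM in CSAA+RSV rats and from 592 to 1014 CPM in CSAA rats. Lyz2, lysozyme of monocytes and macrophages, had 1269 ± 165 CPM in CSAA+RSV rats and 1153 ± 311 CPM in CSAA rats. The part of monocyte or neutrophil RNA in the Lgals3 values was not tested.

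Of the 6 other galectin family genes, Lgalsl had the most counts. Lgalsl, a galectin-like gene whose product does not bind lactose, had 520 to 867 counts per rat and 25.0 ± 5.06 CPM in CSAA+PTS rats, 22.6 ± 3.58 CPM in CSAA+RSV, 21.6 ± 5.14 CPM in CSAA+CGA and 22.4 ± 4.59 CPM in CSAA. Lgals2, known from the gut, had 20 to 68 counts per rat, and Lgals4, also an intestinal galectin, 3 to 24. Lgals12, an adipocyte galectin, and Grifin, a lens protein, had 0 to 32 and 0 to 8 counts and did not pass the filter. Lgals7, the galectin of stratified epithelia, had 0 to 367 counts. Of the 19 rats, its highest values were 9.55 CPM in CSAA+RSV Rat5 and 2.92 CPM in CSAA Rat5, and 1 rat had none. None of the 4 that were tested passed at an adjusted p of 0.05 in any comparison.

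The genes whose levels ran most like each member were ranked by Pearson r of log2(CPM + 0.5) over 19 rats among 12054 genes. For Lgals3bp they were Hba-a1 (r = 0.922), the amino acid transporter gene Slc7a5 (0.910) and Ppp4c, a phosphatase subunit (0.904). For Lgals5 they were Lgals9 (0.968), Txn2, mitochondrial thioredoxin (0.901), and Hbq1b, a theta globin gene (0.893). For Lgals9 they were Lgals5, the F-box gene Fbxo42 (0.892) and Hbq1b (0.880). All of these r values were between 0.845 and 0.955 in the 15 rats without the fifth of each diet.

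Other genes ranked highest for the remaining members. For Lgals3 they were P2rx4, an ATP-gated channel (0.880), Marcks, a substrate of protein kinase C (0.865), and Ifit3, an interferon-induced gene (0.862). Without the fifth rats these 3 had r = 0.835, 0.899 and 0.895. For Lgals8 they were Lypla1, an acyl-protein thioesterase (0.896), Uqcrc2, a subunit of respiratory complex III (0.893), and Tnfaip8 (0.881). For Lgals1 they were Mrpl34, a mitochondrial ribosomal protein (0.756), Papolg, a poly(A) polymerase (0.744), and the blood group gene Art4 (0.733), and these 3 had r of 0.426, 0.564 and 0.554 without the fifth rats.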

How the data were processed

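Whole-blood RNA of 20 rats was sequenced from a stranded kit as single reads. The authors trimmed reads with Trimmomatic 0.32, checked them with FastQC 0.11, aligned them to rn6 with TopHat2 2.1 and counted them per Ensembl gene with Rsubread. Their deposited values are whole-number counts per gene, not normalized. Whether counting used strand, and how reads with several matches were handled, is not stated there.

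CSAA+RSV Rat4 was left out. A gene was removed when 5 or more of the 19 rats had fewer than 2 reads, and 16734 of 32882 genes were kept. Diets were compared in 1 fit over the 4 diets with the two-sided quasi-likelihood test of edgeR 4.0.16 (TMM, R 4.3.3) and Benjamini-Hochberg adjustment over all genes, at 0.05. Intervals are 95%. CPM are counts per 1000000 of the TMM-adjusted library size. DESeq2 1.42.0 (the authors used 1.30) and limma 3.58.1 were alternatives. The code was tested on simulated data. Promoters came from RefSeq (GRCr8) and were aligned with Biopython 1.88. Depth, at 24036703 to 36743103 counts in the 19 rats, allows precise levels for all 6 genes, and the 5 rats per diet limit the comparisons.

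The members and the 13 gene lists were chosen with earlier results of these data known. Named genes were the 6 members, the 6 listed relatives, up to 3 genes per other list by mean CPM in CSAA rats, and 3 genes per member by r among those with a mean of at least 1 CPM. Same-numbered CSAA+PTS and CSAA rats deviated together in all 5 pairs (r from 0.114 to 0.468). Differently numbered rats reached r = 0.515 (CSAA+PTS Rat2 with CSAA Rat3), so these values do not settle whether the numbers of the titles pair the rats. The estimates, errors and intervals above took no account of the numbers of the titles. A fit with these numbers as a block (the replicate block) is given below as an alternative. Labels of the counts also give each animal a separate number, which no fit used. In the other 5 comparisons not every same-numbered pair deviated together.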

Additional observations from a re-analysis of the deposited data

Results flagged for a closer look

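CSAA+RSV Rat4, which had 861072 counts and is in no comparison of diets, held all 6 genes. Its Lgals3 level was 25.4 CPM, above the 17.3 to 25.1 CPM of the CSAA rats, and its Lgals8 level was 11.6 CPM, above their 8.38 to 10.4 CPM. These rest on 22 and 10 reads. No rat stood far from the rest of its diet in the 24 sets of 1 gene in 1 diet that were checked with Dixon's limits, where chance would mark about 1 in 20.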

How the results depend on the processing

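Each comparison was run under 30 other settings, of which 19 left out 1 rat each. Most kept the count of 0 genes passing. Between CSAA+PTS and CSAA, DESeq2 called 14 genes on the 2 diets and 6 on the 4 diets, and limma with sample weights called 26. Leaving out 1 rat gave 0 to 8 genes there, the 8 without CSAA+PTS Rat2. Between CSAA+PTS and CSAA+CGA, DESeq2 on the 2 diets called 3 genes. Between CSAA+PTS and CSAA+RSV, DESeq2 called 2 genes on the 2 diets and 1 on the 4 diets, and limma called 1. The cause was not tested.

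Of the 6 genes, Lgals3bp passed in 2 of the settings, and Lgals5 and Lgals9 in limma alone (adjusted p from 0.024 to 0.047), all between CSAA+PTS and CSAA. In that comparison the log2 fold change ran from -1.10 to -0.85 for Lgals3bp, from -0.64 to -0.44 for Lgals5 and from -0.66 to -0.47 for Lgals9. Without the fifth rats Lgals3 was at 0.23 between CSAA+RSV and CSAA and at -0.24 between CSAA+PTS and CSAA+RSV.

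With the replicate block the log2 fold change of Lgals3bp between CSAA+PTS and CSAA was -1.02 (edgeR, adjusted p 0.070, range over all settings 0.024 to 0.834), 0 genes passed, and 2039 rather than 1269 had an unadjusted p under 0.05. The block changed no call in the other comparisons. With no filter the median of all genes moved from 0.02 to 0.15 between CSAA+PTS and CSAA. Lgals8, at about 10 CPM, is the gene that depth limits most.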
